A study of Mus musculus with 16 samples.

Results

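Ciliated cells are the epithelial cells of the airway that carry beating cilia, and 36 genes that mark them or build their cilia were followed here in newborn mouse lungs after ozone. The genes were chosen by name, as known regulators, structural parts and markers of motile cilia. Earlier results of these data were known at that point, so counts set against all genes may not be independent of the choice. The genes were found on the array through the accession, gene name or older synonym of each probe, with the brightest probe taken for each gene. Of the 36 genes, 35 had a probe and 34 passed the filter on dim probes, out of 21629 genes tested in all. Cdhr4 had no matched probe, and the probe of Cdhr3 was well above background on 1 of 16 arrays, so these cadherin-related genes have no value here.

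The lungs came from BALB/c mice, an inbred laboratory strain, that were 3 days old at exposure. Pups in the ozone groups received 1000 ppb for 3 h, and their littermates in the air groups received filtered air for the same 3 h. The whole lung was collected 6 h or 24 h later, with 4 ozone and 4 air lungs per time, 16 lungs and 16 arrays in all. No allele or other agent was named in the labels, and pups were cross-fostered so that a dam was present throughout the exposure. The 2 times were separate experiments with separate air littermates, so a level at 6 h set against one at 24 h also holds whatever else differed between the runs. Per the labels each lung is from a different mouse, 4 drawn at random per group. RNA integrity values lay between 8.6 and 9.1 over the study, and a value per lung was not used here.

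Motile cilia are built on a shaft of microtubules, the axoneme, which bends when dynein arms on the outer microtubules walk along their neighbours. Radial spokes and a central pair of microtubules set the pattern of the beat, nexin links hold the outer microtubules together, and intraflagellar transport carries parts to the tip. FOXJ1 and the RFX factors are the transcription factors that switch on most of these genes, and the beating cilia clear mucus and inhaled particles from the airway, whose lining meets inhaled ozone.

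Values are log2 signals relative to the 75th percentile of the probes of an array, so 0 is the signal at that percentile and a difference of 1 is a 2-fold change. Probes differ in brightness, and the level of a gene was never set against that of another gene. The share of spots well above background lay between 65.0% and 83.9% per array, and the highest belonged to ozone replicate 3 of 6 h, against at most 72.4% in the other arrays of that time. Correlations between arrays of a group, across genes that are not independent replicates, were at least 0.969. Arrays of replicates 1 and 2 of a time shared one slide and those of replicates 3 and 4 another, each with 2 ozone and 2 air lungs. By Xist, males numbered 2 of 4 ozone and 1 of 4 air lungs at 6 h, and 3 of 4 ozone and 1 of 4 air lungs at 24 h. All 19 markers of alveolar type II cells and all 23 of club cells passed the filter, as did 32 of the 34 ciliated genes on every one of the 16 arrays. In a whole lung, fewer ciliated cells and less RNA per ciliated cell cannot be told apart.

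At 6 h after exposure the ciliated genes were mostly lower in the ozone lungs, and at 24 h they were mostly higher. At 6 h, 5 of the 34 genes fell (Mdh1b, Mlf1, Sntn, Pifo and Nme9) and none rose by limma at an adjusted p under 0.05, against 3.12% of all genes that fell and 1.36% that rose. Without the adjustment, 11 had p under 0.05 and were lower and 1 was higher, against 10.8% and 10.2% of all genes. At 24 h, 1 of 34 rose (Tppp3) and none fell, against 0.684% and 1.32% of all genes, while 16 were higher and 0 lower at an unadjusted p under 0.05, against 8.25% and 5.06% of all genes. The ozone effect itself differed between the times for 3 genes, Pifo, Mdh1b and Nme9, each more positive at 24 h than at 6 h, where only 0.0462% of all genes were called in that direction and 0.0185% in the other.

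The direction was shared by many more genes than passed the test. At 6 h, 25 of 34 ciliated genes lay below 0 and 9 above, against 38.6% and 61.4% of all genes, and their median was -0.15 on the log2 scale against 0.07 for all genes. At 24 h, 32 lay above 0 and 2 below, against 54.9% and 45.1% of all genes, with a median of 0.27 against 0.02. The effect at 24 h minus that at 6 h was above 0 for 28 and below 0 for 6, against 45% and 55% of all genes, with a median of 0.43 against -0.04. For that difference 18 genes had an unadjusted p under 0.05 in the positive direction and 0 in the other, against 8% and 4.5% of all genes. The 4 ozone values lay wholly below the 4 air values for 7 ciliated genes at 6 h and wholly above them for 0, against 4.87% and 4.61% of all genes. At 24 h they lay wholly above for 11 and wholly below for 0, against 6.8% and 4.97%. With normexp background correction, 14 genes lay above 0 and 20 below at 6 h, 21 above and 13 below at 24 h, and 21 above and 13 below for the difference. The medians were then -0.0921, 0.141 and 0.0837, against 0.143, -0.134 and -0.214 for all genes. With the mean of the probes of a gene, 12 lay above 0 and 22 below at 6 h, 32 and 2 at 24 h, and 24 and 10 for the difference. Of 14 genes with several kept probes, 4 had a probe of the opposite sign at 6 h, 4 at 24 h and 6 for the difference. Both effects enter the difference, so the counts at 6 h, at 24 h and for the difference are not independent of one another.

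**Figure D1:**
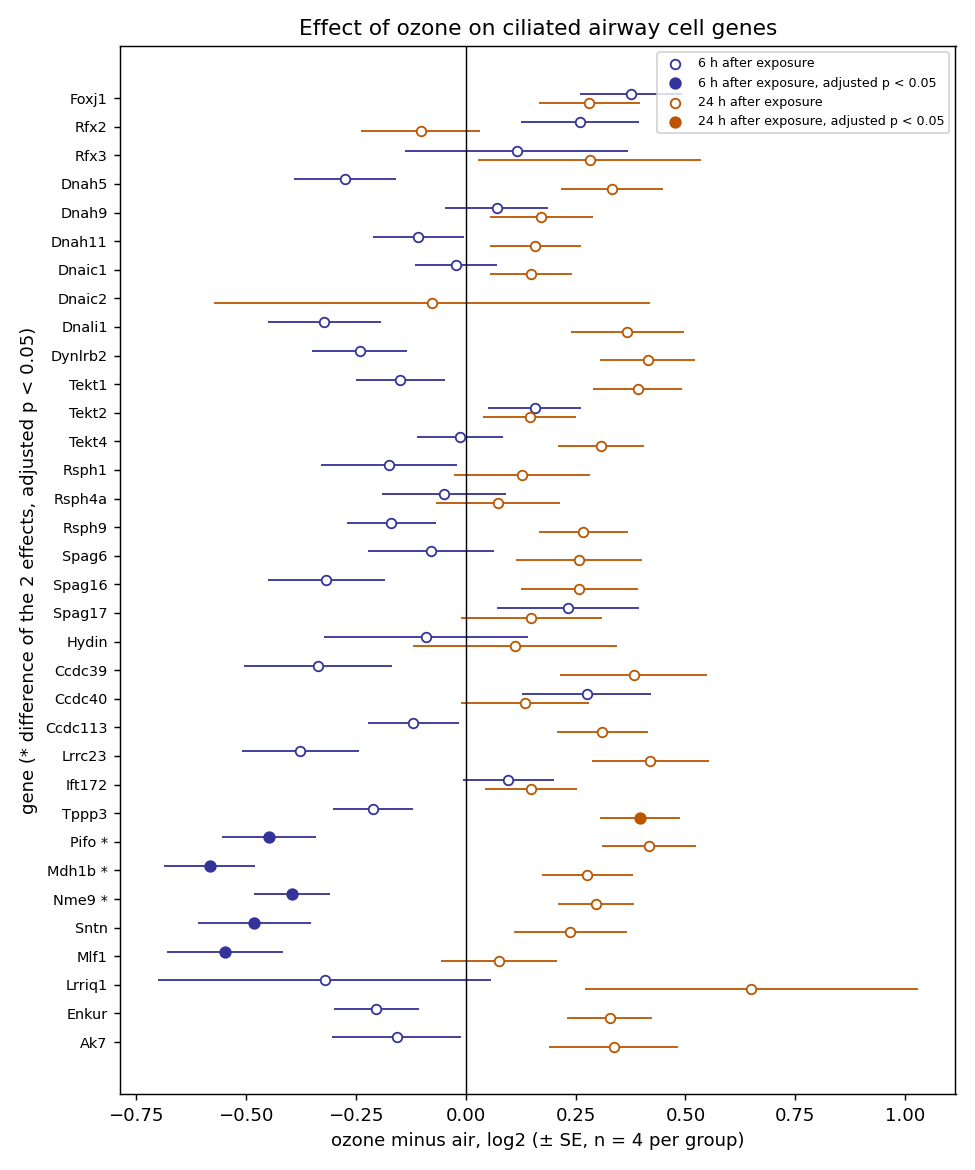
Ozone minus air difference of each of the 34 tested genes on the log2 scale (x axis) at 6 h and 24 h after exposure, with bars of 1 SE and 4 lungs per group. Filled points have a limma adjusted p under 0.05, a star marks a difference between the times with an adjusted p under 0.05, and Dnaic2 has no point at 6 h because it was dim in all 8 lungs. The 6 h points of 25 genes lie left of 0 and the 24 h points of 32 lie right of it.

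The slides gave unequal sizes. At 6 h the median of the 34 genes was -0.20 on the slide of replicates 1 and 2 and -0.12 on that of replicates 3 and 4, and 18 genes lay below 0 on both slides, 6 above 0 on both and 10 on opposite sides. At 24 h the medians were 0.37 and 0.11, and 27 genes lay above 0 on both slides, 1 below 0 on both and 6 on opposite sides. The medians of all genes on these slides were -0.0038 and 0.11 at 6 h and 0.07 and -0.0068 at 24 h. No ciliated gene was called by limma within either slide at 6 h, where 12 of all 21629 genes rose and 41 fell on the first slide and 277 rose and 488 fell on the second. At 24 h, 2 ciliated genes rose on the slide of replicates 1 and 2 and 0 on the other, where 19 and 25 of all genes rose and 28 and 230 fell.

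None of the 3 transcription factor genes passed a test, and all 3 lay above 0 at 6 h. Foxj1, which is needed for motile cilia to form, lay at 1.16, 0.90, 0.56 and 1.04 in air replicates 1 to 4 of 6 h and at 1.28, 1.13, 1.25 and 1.5 in the ozone replicates. Its ozone values were mostly the higher ones, with air replicate 1 above the lowest of them, a difference of 0.38 ± 0.12 (log2, SE, n = 4 per group, limma adjusted p = 0.0733). At 24 h it lay at 0.68, 0.81, 1.02 and 0.99 in air and at 1.05, 1.19, 1.27 and 1.13 in ozone, and all 4 ozone lungs were above all 4 air lungs. The difference there was 0.28 ± 0.12 (limma adjusted p = 0.277), and the change of the ozone effect between the times was -0.10 ± 0.16 (limma adjusted p = 0.844), so Foxj1 passed no test.

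Rfx2, a factor that binds the X box motif of ciliary promoters, lay at -3.37, -3.62, -3.28 and -3.65 in air and at -3.30, -2.89, -3.31 and -3.39 in ozone at 6 h. The 24 h values were -2.57, -2.62, -2.65 and -2.51 in air and -2.85, -2.71, -2.57 and -2.63 in ozone. The groups overlapped at both times, with differences of 0.26 ± 0.14 and -0.10 ± 0.14 (limma adjusted p = 0.282 and 0.865). Rfx3, a factor of the same family, lay at -3.34, -2.80, -2.15 and -2.60 in air and at -2.25, -2.71, -3.03 and -2.43 in ozone at 6 h. Its 24 h levels were -2.88, -3.15, -2.85 and -2.83 in air and -2.81, -2.82, -1.90 and -3.06 in ozone, where replicate 3 stood far above the rest. Its differences were 0.12 ± 0.25 and 0.28 ± 0.25 (limma adjusted p = 0.813 and 0.751), and the 6 h differences of both RFX genes were below 0 with quantile normalization.

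The genes of the dynein arms, the motors of the beat, held 7 members, and none passed the test at either time. At 6 h, 5 of the 7 lay below 0, against 38.6% of all genes, with 3 of them at an unadjusted p under 0.05, against 10.8%. At 24 h, 6 of 7 lay above 0, against 54.9%. Dnali1, an axonemal dynein light chain of the inner arms, lay at 0.15, -0.01, -0.51 and -0.09 in air and at -0.34, -0.63, -0.28 and -0.48 in ozone at 6 h, a difference of -0.32 ± 0.13 (limma adjusted p = 0.164). Its ozone lungs were low, but air replicate 3 was among them. At 24 h Dnali1 lay at -0.13, -0.04, 0.25 and 0.31 in air and at 0.53, 0.55, 0.43 and 0.36 in ozone, a difference of 0.37 ± 0.13 (limma adjusted p = 0.184) with no overlap.

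Dynlrb2, a light chain of the roadblock type, lay at 3.99, 3.76, 4.01 and 3.96 in air and at 3.88, 3.46, 3.55 and 3.87 in ozone at 6 h, where the groups overlapped in part. At 24 h it lay at 2.62, 2.79, 2.90 and 3.02 in air and at 3.30, 3.35, 3.29 and 3.04 in ozone. The lowest ozone lung stood just above the highest air lung, and the difference was 0.41 ± 0.11 (limma adjusted p = 0.0611). Its second kept probe gave -0.35 ± 0.10 at 6 h and 0.36 ± 0.10 at 24 h, the same directions as the brightest probe. Dnah5, the heavy chain of the outer arm that is often mutated when cilia are immotile, lay at -1.12, -1.20, -1.29 and -1.27 in air and at -1.39, -1.62, -1.47 and -1.51 in ozone at 6 h. These groups did not overlap, yet the difference of -0.27 ± 0.12 did not pass the test (limma adjusted p = 0.186), and at 24 h it was 0.33 ± 0.12 (limma adjusted p = 0.182). A pair of dimmer Dnah5 probes, above background on 8 arrays each, gave 0.73 ± 0.51 and 0.24 ± 0.43 at 6 h, with errors too wide to set against it.

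Differences of the other outer arm genes were small, and none passed the test. The heavy chains Dnah9 and Dnah11 differed by 0.07 and -0.11 at 6 h and by 0.17 and 0.16 at 24 h, and the intermediate chain Dnaic1 by -0.02 and 0.15. Dnaic2, another intermediate chain, was well above background on 5 of 16 arrays, on no array of 6 h, on all 4 air arrays of 24 h and on 1 of 4 ozone arrays of 24 h. It therefore has no difference at 6 h, although it counts among the 34 genes and among the 9 above 0, and at 24 h its difference was -0.08 ± 0.50, with an SE far larger than the value.

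The tektins are filament proteins that line the inside of the outer microtubules. Tekt1 lay at 2.40, 2.31, 2.43 and 2.54 in air and at 2.43, 2.16, 2.13 and 2.37 in ozone at 6 h, with overlapping groups and a difference of -0.15 ± 0.10 (limma adjusted p = 0.419). The 24 h values were 1.76, 1.83, 2.08 and 2.18 in air and 2.5, 2.44, 2.33 and 2.15 in ozone, where only air replicate 4 and ozone replicate 4 crossed. The difference of 0.39 ± 0.10 fell short of the threshold (limma adjusted p = 0.0581), and the second kept probe of Tekt1 gave 0.38 ± 0.10. Tekt4 differed by -0.01 at 6 h and 0.31 at 24 h, and Tekt2 by 0.16 and 0.15.

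Of the 7 genes of the radial spokes and the central pair, 6 lay below 0 at 6 h and all 7 above 0 at 24 h, and none passed the test. The spoke head genes Rsph1, Rsph4a and Rsph9 differed by -0.17, -0.05 and -0.17 at 6 h and by 0.13, 0.07 and 0.27 at 24 h. Of the central pair genes, Spag16 lay at -2.17, -2.49, -2.32 and -2.5 in air and at -2.91, -2.73, -2.54 and -2.57 in ozone at 6 h, all 4 ozone lungs below all 4 air lungs, with a difference of -0.32 (limma adjusted p = 0.180). A second, dimmer probe of Spag16 gave 0.18 ± 0.17 at 6 h, the opposite direction. Spag17 differed by 0.23 and 0.15.

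Values of Spag6 and Hydin are uncertain as to what was measured. The brightest probe named Spag6 lies on chromosome 16 in mm9, where a near copy of the gene is found, and it gave -0.08 at 6 h and 0.26 at 24 h. Another kept Spag6 probe, well above background on 10 arrays, gave 1.24 ± 0.49 and 0.40 ± 0.49. The brightest Hydin probe carries a numeric name in the files and was matched through a synonym, and its differences were -0.09 ± 0.23 and 0.11 ± 0.23. The other kept Hydin probe gave -0.10 ± 0.11 and 0.17 ± 0.11, so the ozone differences of both probes were near each other. Between the times, however, the level of the brightest probe fell and that of the other rose.

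The 4 genes grouped here under the axonemal ruler and the nexin link passed no test either. The ruler sets the spacing of spokes and inner arms. Lrrc23, a leucine-rich repeat protein of the axoneme, lay at 2.76, 2.48, 2.16 and 2.60 in air and at 2.35, 1.90, 2.14 and 2.10 in ozone at 6 h, a difference of -0.38 ± 0.13 (limma adjusted p = 0.116). Air replicate 3 was the only air lung inside the range of the ozone lungs. At 24 h Lrrc23 lay at 1.84, 2.02, 2.37 and 2.25 in air and at 2.42, 2.52, 2.76 and 2.44 in ozone, with no overlap and a difference of 0.42 ± 0.13 (limma adjusted p = 0.132). The difference between its effects was 0.80 ± 0.19 (limma adjusted p = 0.103).

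The ruler protein gene Ccdc39 differed by -0.34 at 6 h and 0.38 at 24 h, whereas its partner Ccdc40 differed by 0.28 and 0.13, above 0 at both times. Ccdc113 differed by -0.12 and 0.31. Ift172, the single member of intraflagellar transport, differed by 0.10 ± 0.11 and 0.15 ± 0.11, close to its SE at both times.

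All calls came from the remaining group, markers of ciliated cells that are neither dynein arms nor spokes. Of its 11 genes 9 were tested, and by the brightest probe all 9 lay below 0 at 6 h and above 0 at 24 h. At 6 h, 5 fell, against 3.12% of all genes, and at 24 h, 1 rose, against 0.684%. The median of the 9 was -0.40 at 6 h and 0.33 at 24 h. The 4 ozone lungs lay wholly below the 4 air lungs for 5 of them at 6 h, against 4.87% of all genes. At 24 h they lay wholly above for 5, against 6.8%.

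Mdh1b, a malate dehydrogenase-like gene, is measured by a probe on chromosome 1 from 63745416 to 63745475 (mm9, minus strand). It lay at -0.04, -0.35, -0.20 and -0.14 in air and at -0.70, -0.91, -0.81 and -0.64 in ozone at 6 h, so every ozone lung was well below every air lung. Mdh1b fell by 0.58 ± 0.10 (log2, SE, n = 4 per group, limma adjusted p = 0.0064), and was called whichever single array was left out. Its second probe, much dimmer, gave -0.71 ± 0.24. Its 24 h levels were -1.36, -1.03, -1.01 and -0.97 in air and -0.92, -0.66, -0.76 and -0.94 in ozone, again without overlap but now with the ozone lungs higher, by 0.28 ± 0.10 (limma adjusted p = 0.218). The change between the times was 0.86 ± 0.15 (limma adjusted p = 0.0379).

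Pifo, known as pitchfork and expressed in ciliated cells, is measured on chromosome 3 from 105803333 to 105804019 (mm9, minus strand). It lay at -0.61, -0.84, -0.51 and -0.58 in air and at -1.08, -1.19, -1.13 and -0.92 in ozone at 6 h, with no overlap, and fell by 0.45 ± 0.11 (limma adjusted p = 0.0265). At 24 h it lay at -1.53, -1.29, -1.08 and -1.36 in air and at -0.99, -0.76, -0.83 and -1.01 in ozone. The ozone lungs were all above the air lungs there, by 0.42 ± 0.11, just short of the threshold (limma adjusted p = 0.0527). The change of the Pifo effect between the times was 0.87 ± 0.15 (limma adjusted p = 0.0380).

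Nme9, which joins a thioredoxin domain to nucleoside diphosphate kinase domains, is measured on chromosome 9 from 99374985 to 99375044 (mm9, plus strand). It lay at 1.76, 1.53, 1.58 and 1.58 in air and at 1.34, 1.12, 1.17 and 1.24 in ozone at 6 h, again with every ozone lung the lower, and fell by 0.40 ± 0.09 (limma adjusted p = 0.0181). The 24 h values were 1.07, 1.20, 1.30 and 1.42 in air and 1.38, 1.62, 1.67 and 1.51 in ozone, where only ozone replicate 1 and air replicate 4 crossed. The 24 h difference was 0.30 ± 0.09 (limma adjusted p = 0.0951), and the change between the times was 0.69 ± 0.12 (limma adjusted p = 0.0396).

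The calls of a difference between the times rest on few arrays. Leaving out 1 array in turn kept the call in 3 of 16 fits for Pifo, 4 for Mdh1b and 3 for Nme9, and the values stayed between 0.63 and 0.94. All 3 calls were kept only without air replicate 2 of 6 h, 2 were kept without ozone replicate 1 or 4 of 6 h or air replicate 3 of 24 h, 1 without air replicate 4 of 24 h, and none without any of the other 11 arrays. With slide as a block the adjusted p was 0.061 for Pifo and Nme9 and 0.0671 for Mdh1b, and with the Xist level as a covariate it was 0.0588 to 0.0728.

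Sntn, which encodes sentan, a protein of the tips of respiratory cilia, is measured on chromosome 14 from 14514967 to 14515026 (mm9, plus strand). It lay at -2.42, -2.64, -2.31 and -2.31 in air and at -2.85, -2.96, -3.07 and -2.73 in ozone at 6 h. The ozone lungs were all lower, and Sntn fell by 0.48 ± 0.13 (limma adjusted p = 0.0420). Its 24 h levels were -3.38, -3.04, -3.06 and -3.05 in air and -2.86, -2.75, -2.90 and -3.06 in ozone, with overlap at ozone replicate 4 and a difference of 0.24 ± 0.13 (limma adjusted p = 0.463).

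Mlf1, the myeloid leukemia factor 1 gene, is measured on chromosome 3 from 67203684 to 67203743 (mm9, plus strand). It lay at 2.22, 1.84, 2.69 and 2.08 in air and at 1.71, 1.42, 1.72 and 1.79 in ozone at 6 h, with a wide spread in air (SD 0.36) and no overlap, and fell by 0.55 ± 0.13 (limma adjusted p = 0.0280). At 24 h it lay at 0.79, 0.95, 0.93 and 0.88 in air and at 1.05, 1.04, 0.95 and 0.82 in ozone, where the groups overlapped and the difference was 0.08 ± 0.13 (limma adjusted p = 0.915). Mlf1 was thus lower at 6 h with little difference at 24 h, and its change between the times, 0.62 ± 0.19, did not pass the test (limma adjusted p = 0.181).

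The 6 h calls other than that of Mdh1b did not hold in every fit that left out 1 array. Nme9 kept its call in 13 of 16 fits and lost it without ozone replicate 2 or 3 or air replicate 4 of 6 h. Mlf1 kept it in 11 and lost it without ozone replicate 1, 2 or 3 or air replicate 1 or 4, and Pifo kept it in 10 and lost it without those 5 arrays or air replicate 3. Sntn kept it in 5, losing it without any of these 6 arrays or without ozone replicate 2 or 3 or air replicate 2, 3 or 4 of 24 h. Only Mdh1b of the 5 was called without ozone replicate 2, without air replicate 4, or without ozone replicate 3, the array with the highest share of spots above background. Without that array the median of the 34 genes was -0.16, against -0.15 with it, and that of all genes was -0.0042, against 0.07. With the 8 arrays of 6 h fitted alone, again only Mdh1b was called.

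Tppp3, a tubulin polymerization promoting protein much used as a marker of ciliated cells, is measured on chromosome 8 from 107991755 to 107991814 (mm9, minus strand). It lay at 3.48, 3.26, 3.12 and 3.26 in air and at 3.16, 3.15, 2.94 and 3.04 in ozone at 6 h, where the groups overlapped and the difference was -0.21 ± 0.09 (limma adjusted p = 0.192). The 24 h values were 3.40, 3.40, 3.68 and 3.72 in air and 4.04, 3.96, 3.86 and 3.94 in ozone, with every ozone lung the higher, and it rose by 0.40 ± 0.09 (limma adjusted p = 0.0305). The rise was 0.59 on the slide of replicates 1 and 2 and 0.20 on the other, and the call was lost without ozone replicate 1, 2 or 4 or air replicate 1 or 2 of 24 h (adjusted p between 0.068 and 0.114). With the Xist level as a covariate the adjusted p was 0.101.

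Of the rest of this group, Enkur, an axonemal adaptor protein, differed by -0.20 ± 0.10 at 6 h and 0.33 ± 0.10 at 24 h, and Ak7, an adenylate kinase, by -0.16 ± 0.15 and 0.34 ± 0.15. At 24 h both had all 4 ozone lungs above all 4 air lungs by the brightest probe, without a call. The second kept probe of Ak7, dimmer but well above background on all 16 arrays, gave -0.20 ± 0.18 at 6 h and 0.0066 ± 0.18 at 24 h. Lrriq1, which holds leucine-rich repeats and an IQ motif, was well above background on 14 of 16 arrays and differed by -0.32 ± 0.38 and 0.65 ± 0.38 (limma adjusted p = 0.648 and 0.516). Its second kept probe, well above background on 10 arrays, had the opposite sign at both times, 0.38 ± 0.38 and -0.24 ± 0.38.

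**Figure D2:**
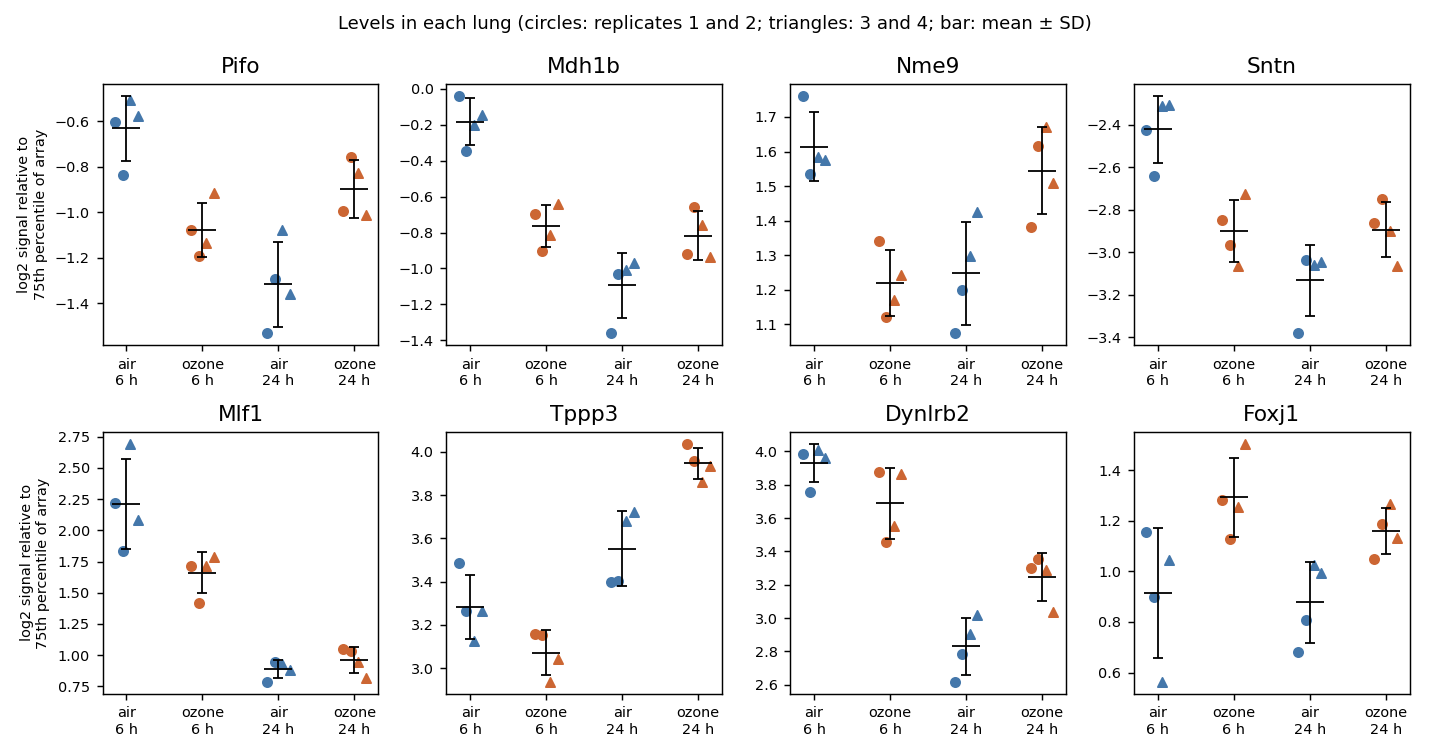
Log2 signal relative to the 75th percentile of the array (y axis) in each lung for the 6 called genes, Dynlrb2 and Foxj1, by exposure and time (x axis), with the mean and SD of 4 lungs as bars. Circles are replicates 1 and 2, on one slide, and triangles replicates 3 and 4, on another. For Pifo, Mdh1b, Nme9, Sntn and Mlf1 the ozone lungs of 6 h lie wholly below the air lungs, and for Tppp3 those of 24 h lie wholly above.

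Some promoters of these genes hold the motifs of known ciliary regulators. RefSeq promoters of build GRCm38.p6, from 250 bases before to 50 after the start of the gene, were found for 32 of the 36 genes, all but Foxj1, Rsph1, Rsph4a and Tppp3. A gene was counted if any of its promoters held the motif. The X box bound by RFX factors, searched on both strands as GTTNCC followed after 3 bases of any kind by GNAAC, was in 5 of the 32 genes (15.6%), in 13 of 153 other ciliary genes with a promoter (8.5%) and in 253 of 27025 genes in all (0.936%). The forkhead motif GTAAACA, bound by FOXJ1 and other forkhead factors, was in 3 of 32 (9.38%), in 5 of 153 (3.27%) and in 1095 of 27025 (4.05%). None of the 32 genes held both motifs.

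The 5 X box windows of 30 bases are shown because Pifo, called at 6 h and between the times, is among them. The other 4 were added after the matches were seen. The strand of the gene is given, each is read 5′ to 3′ on that strand, and capitals mark the match.
Pifo (chr3:106001496-106001525, minus strand): gcggttccGTTCCCTTGGCAACgtagtaca
Enkur (chr2:21205356-21205385, minus strand): tagcaactGTTTCCTTAGCAACcacgtggt
Hydin (chr8:110266948-110266977, plus strand): actctgcgGTTGCTGTGGCAACagatggta
Spag16 (chr1:69826859-69826888, plus strand): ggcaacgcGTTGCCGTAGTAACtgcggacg
Tekt4 (chr17:25471582-25471611, plus strand): tatacaatGTTCCTTAGGCAACcaggaacc
The match of Pifo meets the motif on both strands and begins at position -20 relative to the start of the gene. In Hydin and Tekt4 the match lies on the opposite strand of the gene. The ozone differences of the 5 genes ran from -0.45 (Pifo) to -0.01 (Tekt4) at 6 h and from 0.11 (Hydin) to 0.42 (Pifo) at 24 h.

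Of the forkhead matches, 2 belong to genes called at 6 h, and their windows are shown for that reason, with the motif or its reverse complement in capitals.
Mlf1 (chr3:67373970-67373999, plus strand): cgccgccagtgTGTTTACagaggttgccat
Sntn (chr14:13670629-13670658, plus strand): tagccattccaGTAAACAtactgagactaa
The match begins at position -116 in Mlf1, on the opposite strand, and at -236 in Sntn. The third forkhead match was in Ak7. Neither motif was found in the windows of Mdh1b and Nme9. A match is a run of letters, and binding was not measured here.

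**Figure D3:**
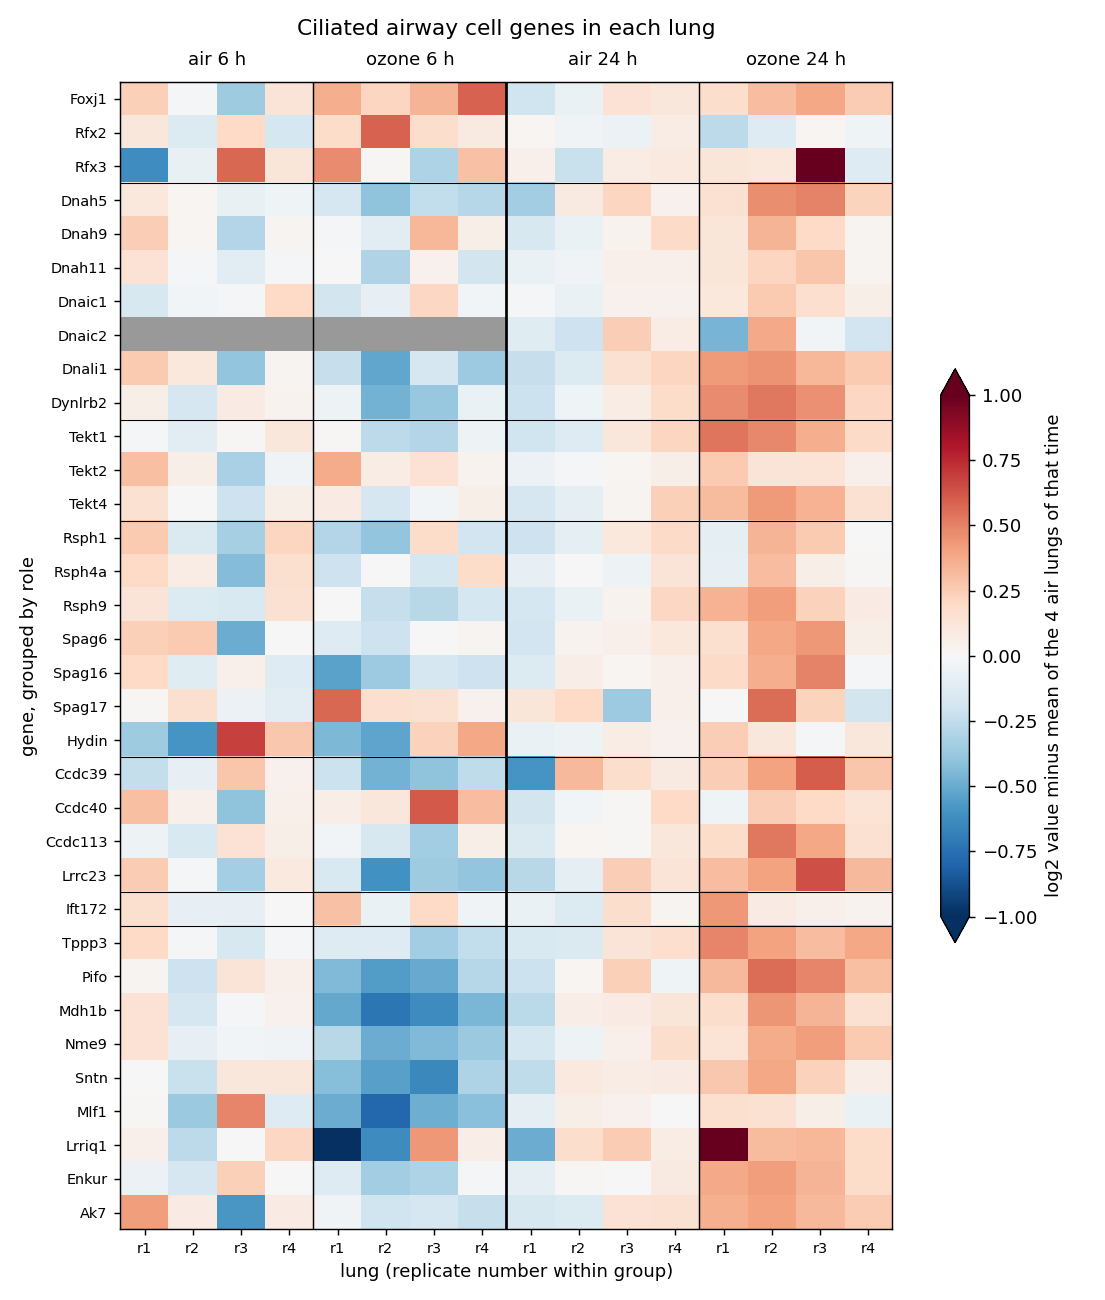
Log2 value of each of the 34 genes (rows, grouped by role) in each of the 16 lungs (columns), minus the mean of the 4 air lungs of the same time, with red above and blue below. Colours end at 1 and -1, and Dnaic2 is grey at 6 h because it was dim in all 8 lungs. The rows from Tppp3 to Ak7 are mostly blue in the ozone lungs of 6 h and red in those of 24 h.

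Many of the genes were low, or high, in the same lung. Among the air lungs of 24 h, replicate 1 was the lowest of 4 for 28 of the 34 genes and replicate 4 the highest for 21. Among the ozone lungs of 24 h, replicate 4 was the lowest for 22 genes and replicate 2 the highest for 17. At 6 h, ozone replicate 2 was the lowest for 18 genes, air replicate 1 the highest for 17 and air replicate 3 the lowest for 16. The same counts were not made over all genes, so they do not show whether this was particular to the ciliated genes. Without air replicate 1 of 24 h the median of the 34 genes at 24 h was 0.20 in place of 0.27, with 32 genes still above 0. The median of all genes was 0.0247 without that array and 0.0239 with it. The median SD within a group lay between 0.133 and 0.178 for the ciliated genes and between 0.142 and 0.195 for all genes.

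Other genes of the cilium, in 6 lists with 183 genes, of which 174 had a probe and 164 were tested, had medians closer to those of all genes. At 6 h, 2 of 164 rose and 6 fell, against 1.36% and 3.12% of all genes, with a median of -0.05 against 0.07 for all genes. At 24 h, 3 rose and 4 fell, against 0.684% and 1.32% of all genes. The 24 h median was 0.14 against 0.02, and 125 of 164 lay above 0, against 54.9% of all genes. None was called for a difference between the times. There 48 had an unadjusted p under 0.05 in the positive direction and 3 in the other, against 8% and 4.5% of all genes. Their median there was 0.14, against 0.43 for the 34 ciliated genes and -0.04 for all genes.

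By list, the genes that fell at 6 h were mostly from the wider set of ciliated cell genes, with 4 of 54, against 3.12% of all genes. They were Cetn2, a centrin of basal bodies, by 0.54 ± 0.10 (limma adjusted p = 0.00795), Ccdc153 by 0.51 ± 0.12, B9d1, a protein of the ciliary gate, by 0.42 ± 0.10, and Morn5. In the same list Sec14l3, an abundant airway lipid-binding protein gene, rose at 24 h by 0.51 ± 0.09 (limma adjusted p = 0.00594), Tubb4a fell by 0.38 ± 0.09, and Tmem212 stood at 0.44 ± 0.12 without a call (limma adjusted p = 0.0703). Of 33 genes of intraflagellar transport and the BBSome, a coat that moves cargo in cilia, Ift20 fell at 6 h by 0.27 ± 0.07 and none was called at 24 h, where Ift80 had the smallest p at -0.20 ± 0.09 (limma adjusted p = 0.310).

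Of 18 other dynein chains and docking factors, Wdr63 fell at 6 h by 0.52 ± 0.13 (limma adjusted p = 0.0369) and none was called at 24 h. Ccdc114, a docking factor, was well above background in 1 of 4 ozone lungs and no air lung of 6 h, so no fold is given, and it was not called (limma adjusted p = 0.0562). The list mean of these 18 genes was 0.62 in ozone replicate 3 of 6 h and -0.18 to -0.12 in the other ozone lungs of that time. Of 13 assembly factors of the dynein arms none was called at either time. The smallest adjusted p among them were 0.0800 for Dnaaf5 at 6 h (0.32 ± 0.10) and 0.0751 for Dnaaf4 at 24 h (0.29 ± 0.08), and 10 of the 13 lay above 0 at 24 h. Of 35 further genes of spokes, central pair and nexin link, Cfap43, needed for the beat of sperm tails and cilia, rose at both times, by 0.39 ± 0.11 and 0.44 ± 0.11, and Fbxl13 rose at 24 h by 0.40 ± 0.09. In that list 32 of 35 lay above 0 at 24 h, against 54.9% of all genes.

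The list of the switch to many cilia, in which cells multiply their centrioles before they grow cilia,, had calls in both directions. Of its 11 tested genes, Trp73, a transcription factor of multiciliated cells, rose at 6 h by 0.50 ± 0.12 (limma adjusted p = 0.0317) and stood at 0.31 ± 0.12 at 24 h (limma adjusted p = 0.262). Plk4, Cep152 and Cep72, genes of centriole duplication that dividing cells also use, fell at 24 h by 0.68 ± 0.12, 0.43 ± 0.08 and 0.32 ± 0.07 (limma adjusted p = 0.00383, 0.00998 and 0.0256). Mcidas, Gmnc, Foxn4 and Cdc20b of that list were not analysed here.

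Each list of other cell types also had more markers above 0 than below at 24 h. The share above 0 ran from 61.5% (neuroendocrine cells) to 100% (basal and mucous cells), against 54.9% of all genes. Of 23 markers of club cells, which secrete the lining fluid of the bronchioles, 5 rose and none fell at 24 h, among them Ces1d by 0.56 ± 0.08, Cyp2a5 by 1.58 ± 0.23 and Aldh1a1 by 0.52 ± 0.09 (limma adjusted p = 0.00119, 0.00120 and 0.00419). A probe for Cyp2a5 can bind near copies. Among all genes 0.684% rose and 1.32% fell at 24 h. The median of the club list was 0.30 and 22 of 23 lay above 0. At 6 h none of the 23 was called, with a median of 0.05. Scgb1a1, the defining club cell secretoglobin, stood at -0.04 and 0.12.

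**Figure D4:**
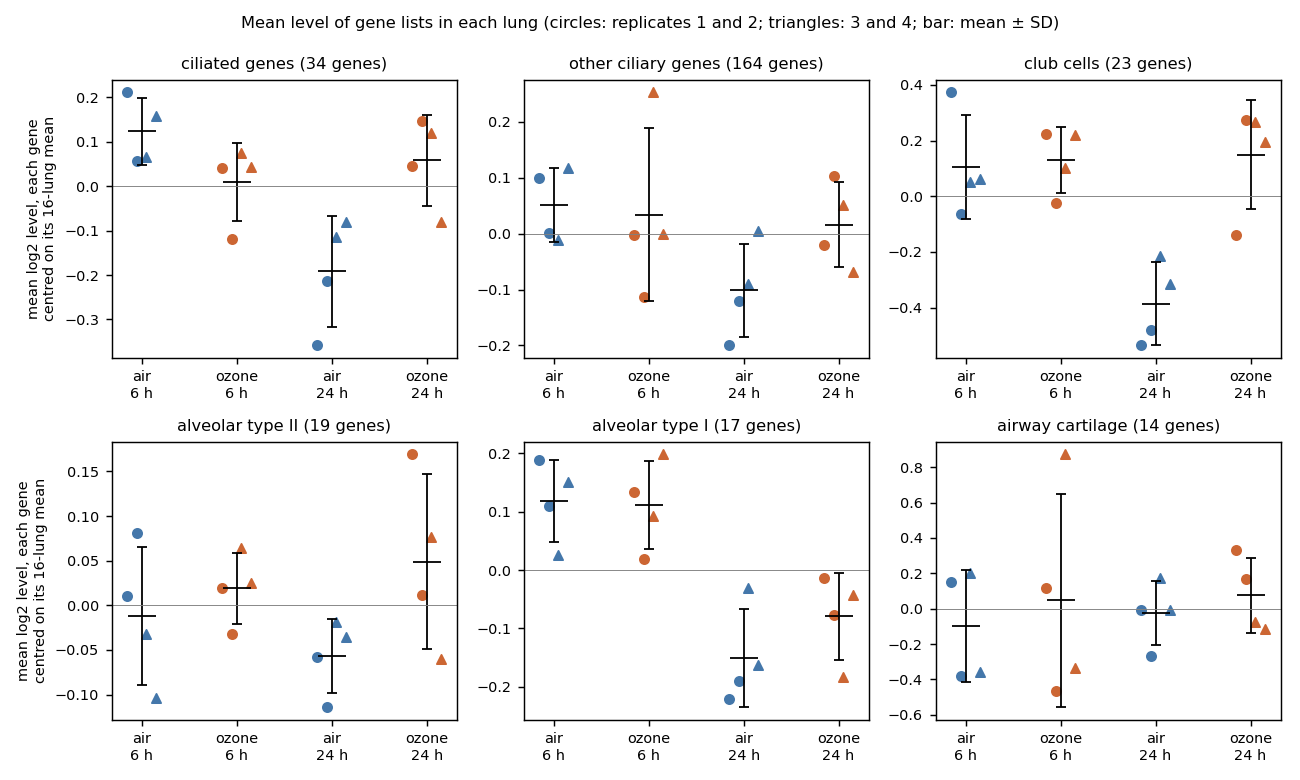
Mean log2 level of 6 gene lists in each lung, each gene centred on its mean over 16 lungs (y axis), by exposure and time (x axis), with the mean and SD of 4 lungs as bars. The air lungs of 24 h have the lowest mean of the groups for every list drawn except airway cartilage.

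Set on the mean over all 16 lungs, the 34 ciliated genes averaged 0.12 in air (0.06 to 0.21 per lung) and 0.01 in ozone (-0.12 to 0.07) at 6 h, and -0.19 in air (-0.36 to -0.08) and 0.06 in ozone (-0.08 to 0.15) at 24 h. The club cell markers averaged 0.11 in air (-0.06 to 0.37) and 0.13 in ozone (-0.02 to 0.22) at 6 h, and -0.39 in air (-0.53 to -0.21) and 0.15 in ozone (-0.14 to 0.28) at 24 h. For both lists the air lungs of 24 h were thus the lowest group. They were also the lowest for the other ciliary genes (-0.10) and for markers of alveolar type I (-0.15) and type II cells (-0.06). The part of club cells or of the share of airway in the ciliated result was not tested.

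Alveolar markers were called at 24 h in both directions. Of 19 markers of type II cells, which make surfactant, none was called at 6 h, and at 24 h Il33 rose by 0.48 ± 0.10 and Cxcl15 fell by 0.35 ± 0.09, with medians of 0.06 and 0.12. Their list mean lay between -0.06 and 0.05 in the 4 groups. Of 17 markers of the flat type I cells, none was called at 6 h and Igfbp2 fell at 24 h by 0.77 ± 0.15, with medians of 0.0025 and 0.09. At 24 h, 13 of the 19 type II markers and 14 of the 17 type I markers lay above 0, against 54.9% of all genes. Of all genes, 0.684% rose and 1.32% fell at 24 h.

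Of 16 markers of basal and mucous cells, Pigr, the receptor that carries antibodies into the airway, rose at 6 h by 2.43 ± 0.37 (limma adjusted p = 0.00270) and none was called at 24 h. The list lay above 0 for 13 of 16 at 6 h, with a median of 0.54, and for all 16 at 24 h, with a median of 0.41 against 0.27 for the ciliated genes. Their list mean ran per lung from -0.71 to 0.36 in air and 0.02 to 0.41 in ozone at 6 h, and from -0.70 to 0.23 in air and -0.29 to 0.78 in ozone at 24 h. Of 13 markers of neuroendocrine cells, 10 lay above 0 at 6 h, with a median of 0.16, and 8 at 24 h, with a median of 0.0060. Of these, Sct and Ddc fell at 6 h by 1.18 ± 0.19 and 0.59 ± 0.10 and Calca rose by 0.69 ± 0.17, and none was called at 24 h. Of 14 cartilage genes, a sign of large airway in a dissected lung, none was called, and 11 lay above 0 at 6 h and 12 at 24 h, with medians of 0.21 and 0.08. The cartilage list mean at 6 h was 0.12, -0.46, 0.87 and -0.34 in ozone replicates 1 to 4 and ran from -0.38 to 0.20 in air. The top value belonged to ozone replicate 3, the array with 83.9% of spots above background. Of 11 tested genes of squamous epithelium (of 17), 10 lay above 0 at 6 h, against 61.4% of all genes, with a median of 0.54. At an unadjusted p under 0.05, 6 were higher and 1 lower, against 10.2% and 10.8% of all genes. Krt6a and Ivl, genes of stratified epithelium, stood at 2.83 ± 0.84 and 2.07 ± 0.68 without a call (limma adjusted p = 0.0641 and 0.0924), and the single call was Dmkn, which fell by 0.43 ± 0.12 (limma adjusted p = 0.0432). At 24 h, 7 of the 11 lay above 0, with a median of 0.09 and no call. The list mean at 6 h was 0.35, 0.88, 1.29 and 0.87 in ozone replicates 1 to 4 and ran from -0.60 to 0.85 in air, so replicate 3 was again the highest. The part of these tissues in the ciliated result was not tested.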

How the data were processed

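Spot intensity values on a linear scale were read from the scanner files that the authors deposited. They were written by Agilent Feature Extraction, a tool in the submitters' processing notes, whose version is 10.7.1.1 in the headers. These 1-colour (Cy3) intensities were background-subtracted and detrended within each array, per the file headers, with no scaling between arrays. A table of log2 values that the authors deposited, with array medians of 6.41 at 6 h and 6.73 at 24 h, served as an alternative. The sources used here do not give its background treatment or normalization.

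Control spots and uneven spots were left out, spots of a probe were averaged over 41174 probes, and log2 of the processed intensity minus the 75th percentile of each array was taken. A probe was kept if 4 or more of the 16 arrays had it well above background (32343 probes), and the brightest probe stood for a gene. Names came from a RefSeq table by accession for 25236 probes, by symbol for 6260 and by synonym for 1603, and 8075 kept the name in the files. Symbols can be old, and near copies can share a probe.

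All 16 arrays entered 1 fit with a mean per group, using lmFit and eBayes with an intensity trend in limma (version 3.58.1, under R 4.3.3). Ozone was compared with air at 6 h, at 24 h, and between the times, with p-values two-sided and Benjamini-Hochberg adjusted over 21629 genes at a threshold of 0.05. Errors are SE unless called SD, and the number of arrays limits the precision, with a median SE of 0.133 over all genes. The fit was also run on simulated data with known changes. At 6 h it recovered 46% of 1.5-fold and 64% of 2-fold changes, and at 24 h 42% and 75%, so it missed many changes of these sizes.

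The members, the 6 lists of other ciliary genes and the 7 of other cell types were chosen with earlier results of these data known. Every array is given for called members, the 3 transcription factors and, per comparison, the 3 uncalled members with the smallest p. Dnah5 and Spag16 were added after their values were seen. Of each other list, genes were taken from the 3 with the smallest p per ozone comparison. Morn5, Scgb1a1 and the genes that have no tested value were named outside that rule. Positions of probes come from the array design (mm9). Alternatives were quantile and median scaling, normexp with an offset of 50, the log2 table, other filters (none, or 8 arrays), the mean of a gene's probes, slide, replicate number, Xist, array weights, each time alone, within each slide, and leaving out each array.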

Additional observations from a re-analysis of the deposited data

Results flagged for a closer look

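Of 56 groups of 4 lungs checked, for single genes or for the mean of the ciliated genes, 3 held a lung far from the other lungs of its group. Chance alone marks about 1 in 20 such groups. Mdh1b in air replicate 1 of 24 h lay at -1.362, below the others at -1.029 to -0.971. Sntn in the same lung lay at -3.383, below the others at -3.059 to -3.038. Rfx3 in air replicate 2 of 24 h lay at -3.155, below the others at -2.881 to -2.829.

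The ozone effect differed between 6 h and 24 h for 3 genes by the limma test of the difference itself, with 4 lungs per group. The effect at 24 h minus that at 6 h was 0.865 for Pifo, 0.858 for Mdh1b and 0.691 for Nme9 (limma adjusted p = 0.0380, 0.0379 and 0.0396). The times were separate experiments on separate slides, so time cannot be told apart from the run.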

How the results depend on the processing

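The median of the 34 genes was below 0 at 6 h and above 0 at 24 h under every alternative run. Of 14 alternatives, the 6 h call was kept in 12 for Mdh1b, 11 for Nme9, 11 for Mlf1, 10 for Pifo and 7 for Sntn, and the 24 h call of Tppp3 in 10. Of 11 alternatives, the call of a difference between the times was kept in 6 for Pifo, 5 for Mdh1b and 7 for Nme9. The number of arrays and dim signals (Dnaic2, Lrriq1, Cdhr3) limit what could be called, and causes of the changes below were not tested.

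At 6 h, members that fell numbered 1 with the arrays of that time alone and 0 within each slide, and 1 rose in the submitters' table. The member median was -0.318 with median scaling, where the median of all genes moved to -0.0931. At 24 h, members that rose numbered 3 with quantile normalization, 0 with median scaling, 7 with normexp, 3 in the submitters' table, 2 with the filter at 8 arrays, 2 with the mean of probes, 0 with Xist, 15 with array weights, and 2 and 0 within the slides. Of all genes, 148 rose at 24 h in the reported fit, 233 with quantile normalization, 46 with median scaling, 327 with normexp and 200 in the submitters' table. The filter at 8 arrays gave 158 of 20367, the mean of probes 109, Xist 53 and array weights 1006. Within the slides, 19 and 25 of all genes rose. The 24 h median was 0.141 with normexp (all genes -0.134) and 0.114 on the slide of replicates 3 and 4. For the difference, members that rose numbered 0 with median scaling, 9 with normexp, 0 with slide as a block, 0 with Xist and 13 with array weights. Of all genes, 10 rose for the difference in the reported fit, 0 with median scaling and 421 with normexp. Slide as a block gave 4, Xist 6 and array weights 331. The median of the difference was 0.602 with median scaling (all genes 0.133), 0.0837 with normexp (all genes -0.214), 0.311 with the mean of probes and 0.536 with array weights.

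Other ciliary genes called at 6 h numbered 8, and 4 without a filter, 4 with the mean of probes, 2 with Xist, 16 with weights, 0 with that time alone and 0 on the slide of replicates 1 and 2. At 24 h they numbered 7, and 1 with median scaling, 4 with the mean of probes, 3 with Xist, 44 with weights and 0 within each slide. For the difference they numbered 0, and 14 with normexp and 27 with weights. Markers of other cells called at 6 h numbered 5, and 9 with quantile normalization, 9 in the submitters' table, 16 with weights, 3 with that time alone and 1 on the slide of replicates 1 and 2. At 24 h they numbered 8, and 5 with median scaling, 28 with weights, and 0 and 4 within the slides. For the difference they numbered 1, and 0 with median scaling, 10 with normexp, 0 with the mean of probes and 10 with weights. With weights, 521 of all genes rose and 1293 fell at 6 h, against 295 and 675 in the reported fit. At 24 h, 1006 rose and 732 fell, against 148 and 286, and for the difference 331 and 110, against 10 and 4.

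With the replicate block, the 24 h rise of Tppp3 and all 3 differences between the times were lost (0 members called in each), 4 of the 5 calls at 6 h were kept, and other ciliary genes called numbered 2 at 6 h and 3 at 24 h. Of all genes, 82 then rose at 24 h and 1 for the difference, and 74 rose and 173 fell at 6 h. Deviations of same-numbered lungs correlated at 0.0502, 0.14, 0.113 and 0.135 at 6 h and 0.195, 0.145, 0.108 and -0.00693 at 24 h. Same-numbered lungs also shared a slide, so these values do not settle whether they were paired. The reported fit did not pair them.

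Leaving out each array in turn gave, at 6 h, 0 to 1 members that rose, 1 to 5 that fell, a median of -0.204 to -0.108, 1 to 14 other ciliary genes and 3 to 10 markers. At 24 h it gave 0 to 2 that rose, 0 that fell, a median of 0.201 to 0.321, 3 to 8 other ciliary genes and 6 to 10 markers. For the difference it gave 0 to 8 that rose, 0 that fell, a median of 0.373 to 0.492, 0 to 12 other ciliary genes and 0 to 4 markers. The 8 came without air replicate 2 of 6 h, where 223 of all genes rose and 40 fell, against 10 and 4 with it.

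Signs turned for Rfx2, Rfx3, Sntn, Mlf1 and Foxj1, among them the difference between the times of Sntn, 0.719 in the reported fit. Rfx2 at 6 h was -0.0193 with quantile normalization and -0.0198 in the submitters' table, and at 24 h 0.0443 with the mean of probes. Rfx3 at 6 h was -0.108 with quantile normalization, -0.0491 with median scaling, -0.109 in the submitters' table, -0.354 on the slide of replicates 3 and 4, and from -0.0901 (without air replicate 1) to 0.308 over the fits that left out 1 array, with -0.00187 without ozone replicate 1. With normexp Rfx3 was -0.21 at 24 h and -0.412 for the difference, which was -0.0258 without air replicate 3 of 6 h and ran from -0.0819 (without ozone replicate 3 of 24 h) to 0.372 over the fits that left out 1 array. Sntn with normexp was -0.234 at 24 h and -0.0881 for the difference, and Mlf1 at 24 h was -0.024 on the slide of replicates 3 and 4. The difference for Foxj1 was 0.0729 with median scaling, 0.0546 with weights and -0.175 to 0.0223 over the fits that left out 1 array, above 0 only without air replicate 3 of 6 h.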

Other observations

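Levels also differed between the air lungs of the separate times, where time, run and slide cannot be told apart. In air, 23 of the 34 ciliated genes (67.6%) were lower at 24 h than at 6 h, against 49.1% of all genes, with a median of -0.289 against 0.0149 on the log2 scale. The difference of Mlf1, 24 h minus 6 h, was -1.32 in air and -0.697 in ozone. The differences of Dynlrb2 were -1.10 in air and -0.443 in ozone, and those of Ccdc39 -1.03 and -0.315. Mdh1b differed by -0.911 in air and -0.0529 in ozone, Sntn by -0.712 and 0.0068, and Pifo by -0.684 and 0.181. Tppp3 and Ccdc40 were higher at 24 h in both exposures, by 0.268 and 0.993 in air and by 0.875 and 0.852 in ozone. These genes were chosen after their values were seen.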
